A study of Mus musculus with 8 samples.

Results

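The genes described here are 8 imprinted regulators of growth and of the placenta: Cdkn1c, Phlda2, Grb10, Gnas, H19, Igf2, Igf2r and Ascl2. Their expression was read from 8 arrays of mouse embryonic stem (ES) cells with and without the histone demethylases Jmjd1a and Jmjd1b. Members were chosen by name and by span: the probe sets whose single gene symbol in the platform's table is one of these 8, and whose measured values spanned at least 0.01 on the log2 scale over the 8 arrays. Of 17 probe sets with such a symbol, 10 were measured in this sense, and they stood for 7 of the 8 genes, out of 7181 genes with a measured probe set. The other 7 were flat, with levels between 5.94 and 6.77 on every array, and hold no measured difference. The whole table has 45101 probe sets, of which 11502 were measured. H19 has no probe set of its own here, because the only one that lists it also lists Mir675, so no value is given for H19. Member probe sets came no closer to that threshold than a span of 0.35, and the widest span among the flat ones was 2.9e-08. The genes were grouped with results of these data known, and the span takes in every comparison. The p-values below therefore set each difference against the spread between replicates and are no independent evidence about the group of genes.

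Each of the 4 genotypes had 2 biological replicates, and whether these came from separate derivations is not stated, so that the spread may be technical in part. Wild-type cells (WT, Jmjd1a+/+; Jmjd1b+/+) are labelled as cells of WT mice. Jmjd1a-KO cells (Jmjd1adelta/delta; Jmjd1b+/+) are from a Jmjd1a-deficient ES line. Jmjd1b-KO cells (Jmjd1a+/+; Jmjd1bdelta/delta) lack only the second enzyme. The double-KO (Jmjd1adelta/delta; Jmjd1bdelta/delta) was made in the Jmjd1a-deficient line by deleting a conditional Jmjd1b allele with OHT, the ligand of the MerCreMer recombinase. All 8 samples share LIF medium and a protocol that names 800 nM OHT, with no sample labelled as an OHT control. Differences of line background between the groups cannot be told apart from the genotype. The 2 deleted genes read as labelled. Kdm3a, the present name of Jmjd1a, had mean log2 levels of 12.78 for WT, 4.98 for Jmjd1a-KO, 12.81 for Jmjd1b-KO and 4.68 for double-KO, and Kdm3b, the present name of Jmjd1b, had 9.93, 9.88, 7.08 and 7.36. All 18 pluripotent stem cell markers were measured, and their mean level per array was 10.94 to 10.96 in WT, 11.10 to 11.23 in Jmjd1a-KO, 10.91 to 10.96 in Jmjd1b-KO and 10.67 to 11.37 in double-KO.

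An imprinted gene is read mainly from the copy inherited from one parent, because DNA methylation or histone marks laid down in egg or sperm keep the other copy silent. Jmjd1a and Jmjd1b remove methyl groups from lysine 9 of histone H3, a mark of silent chromatin. Several paternally expressed genes, with Igf2 as the classic case, promote fetal growth, while maternally expressed genes such as Cdkn1c, Phlda2, Grb10 and Igf2r restrain fetal or placental growth. The arrays read the sum of both parental copies, so the parental origin of the RNA was not measured. In bulk RNA, fewer cells of a type and less RNA per cell cannot be told apart.

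Cdkn1c, Phlda2 and Grb10 had much lower signal in double-KO than in WT, with log2 differences of -3.95, -5.05 and -5.75. Cdkn1c and Grb10 were also lower in both single KOs, and Phlda2 in Jmjd1a-KO, with a difference of -0.00 in Jmjd1b-KO. Igf2 was lower in each single KO but within its replicate error of WT in double-KO. Gnas fell in Jmjd1b-KO and was highest in double-KO. Igf2r passed the test in no comparison, though in some alternatives, and the Ascl2 probe sets moved by less than 1 log2 unit. Differences are from a limma fit of 4 group means over all 11502 measured probe sets with Benjamini-Hochberg adjustment, and "passed" means an adjusted p under 0.05.

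**Figure D1:**
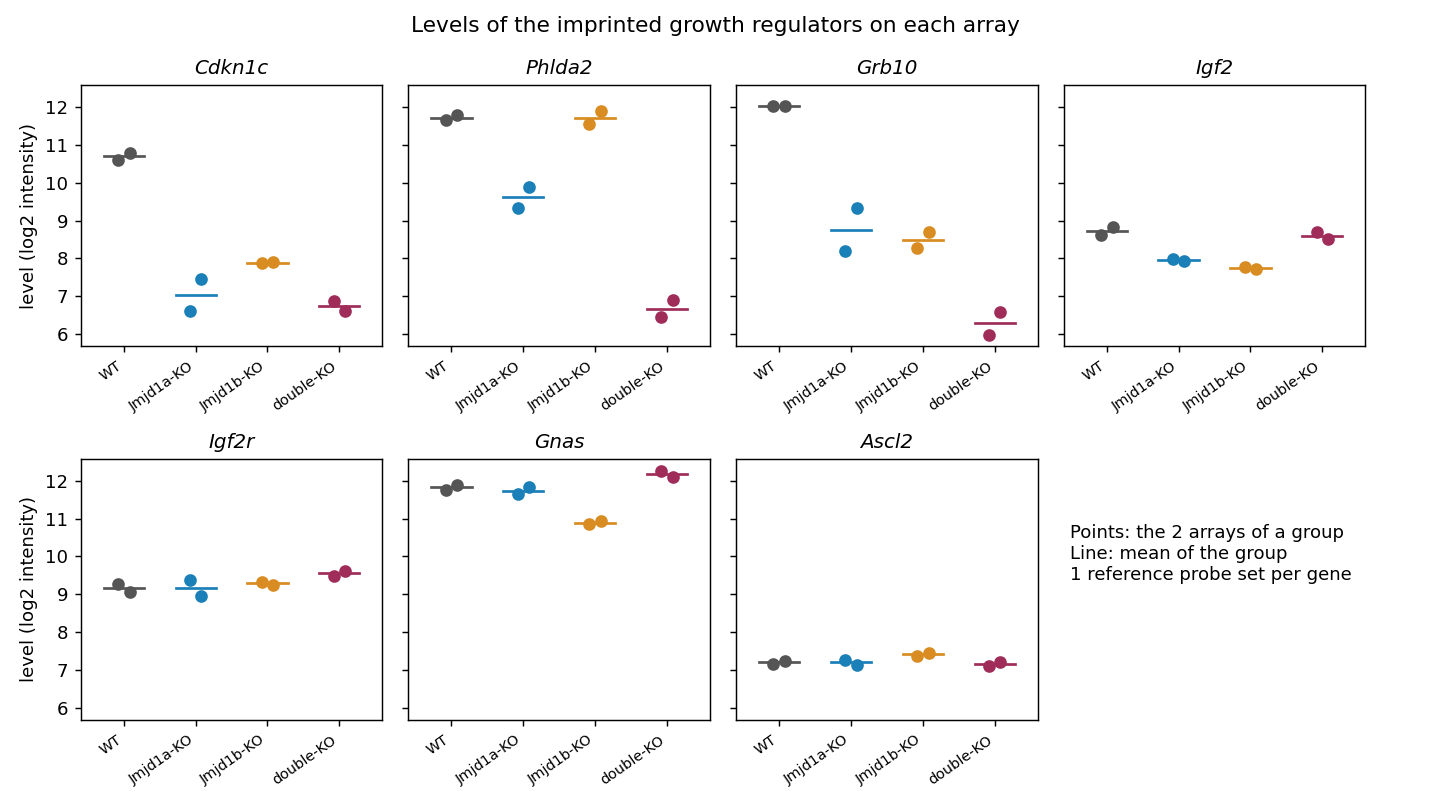
Log2 level (y axis) of 1 probe set for each of the 7 measured genes on each of the 8 arrays, with points for arrays, bars for group means and the 4 genotypes along the x axis. Grb10 goes from 12.03 and 12.04 in WT to 5.98 and 6.59 in double-KO, while Igf2 in double-KO (8.69 and 8.50) lies close to WT.

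The start regions of 4 members are printed because Phlda2 and Grb10 fell most in double-KO, while Igf2r and Ascl2, printed for contrast, did not pass against WT there. Each line holds the 250 bases before an annotated start in RefSeq's mouse annotation of GRCm38.p6, on the minus strand of its chromosome and written 5′ to 3′, with every CG dinucleotide in capitals. Such windows were available for 6 of the 8 genes, and not for Cdkn1c or H19. The windows are chr7:143502525-143502774 (Phlda2), chr11:12037421-12037670 (Grb10), chr17:12769707-12769956 (Igf2r) and chr7:142969265-142969514 (Ascl2).
Phlda2: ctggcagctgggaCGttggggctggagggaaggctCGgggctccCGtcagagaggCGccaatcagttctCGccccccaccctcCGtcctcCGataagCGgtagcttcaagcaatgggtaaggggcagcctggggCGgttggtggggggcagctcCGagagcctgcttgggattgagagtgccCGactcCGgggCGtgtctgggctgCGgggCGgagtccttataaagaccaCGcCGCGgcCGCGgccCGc
Grb10: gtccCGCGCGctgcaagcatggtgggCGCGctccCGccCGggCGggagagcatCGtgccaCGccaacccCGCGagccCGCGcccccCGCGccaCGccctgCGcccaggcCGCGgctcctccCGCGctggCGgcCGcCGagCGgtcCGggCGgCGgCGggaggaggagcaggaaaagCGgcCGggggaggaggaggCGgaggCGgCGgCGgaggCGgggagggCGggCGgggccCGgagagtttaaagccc
Igf2r: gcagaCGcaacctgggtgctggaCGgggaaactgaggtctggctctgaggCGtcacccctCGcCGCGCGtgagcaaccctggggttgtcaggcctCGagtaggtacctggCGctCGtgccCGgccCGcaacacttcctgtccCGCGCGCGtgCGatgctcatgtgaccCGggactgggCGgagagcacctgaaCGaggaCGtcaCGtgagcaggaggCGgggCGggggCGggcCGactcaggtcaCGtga
Ascl2: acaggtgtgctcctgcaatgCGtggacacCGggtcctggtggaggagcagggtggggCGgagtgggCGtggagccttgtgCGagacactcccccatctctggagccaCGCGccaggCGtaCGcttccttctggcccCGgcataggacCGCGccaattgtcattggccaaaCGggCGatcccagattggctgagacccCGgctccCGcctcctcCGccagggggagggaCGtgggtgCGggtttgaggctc
CG is the letter pair that DNA methylation acts on. The Phlda2 window holds 21 of them, the Grb10 window 40, the Igf2r window 27 and the Ascl2 window 19, against a median of 6 over 32851 windows of the same length. Fewer CG were present in 98.7% of all windows than in that of Grb10 and in 91.4% than in that of Igf2r. All 4 printed windows are thus CG-rich, those of Phlda2 and Grb10 as well as those of Igf2r and Ascl2. The second annotated Grb10 start has 8 CG, the 4 Gnas windows have 14 to 29 and the 4 Igf2 windows 1 to 22. Letter strings of common promoter elements were counted on both strands. GGGCGG, a GC box present in 32.7% of all windows, occurred 5 times in the printed Grb10 window, 3 times in that of Igf2r, 2 times in that of Phlda2 and 1 time in that of Ascl2. CCAAT, present in 33.8%, occurred 3 times in the Ascl2 window and 1 time in that of Phlda2. TATAAA, present in 12.4%, occurred 1 time in the Phlda2 window and in none of the other 3 printed, and CACGTG, present in 6.02%, occurred 2 times in the Igf2r window alone among the 4. TGCCGC, present in 8.68%, was in none of the 13 member windows. No methylation or binding was measured, so these counts only describe the sequences.

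Cdkn1c encodes p57, an inhibitor of cyclin-dependent kinases that brings the cell cycle to a stop. Its probe set (1417649_at) read 10.61 and 10.78 in WT, 6.60 and 7.45 in Jmjd1a-KO, 7.87 and 7.89 in Jmjd1b-KO, and 6.86 and 6.62 in double-KO. All 6 KO arrays lay below both WT arrays. Jmjd1a-KO and double-KO overlapped, while both Jmjd1b-KO arrays lay above them.
Cdkn1c fell in all 3 KO groups. Its log2 difference from WT was -3.67 ± 0.27 (SE) in Jmjd1a-KO (limma, adjusted p = 0.00282), -2.81 ± 0.27 in Jmjd1b-KO (adjusted p = 0.00463) and -3.95 ± 0.27 in double-KO (adjusted p = 0.000377). On the linear scale these are 12.7, 7.03 and 15.5-fold lower signals. Double-KO was lower than Jmjd1b-KO, at -1.14 (limma, adjusted p = 0.0156), and its difference from Jmjd1a-KO was -0.29, with a 95% interval of -0.94 to 0.37 (adjusted p = 0.464). The interaction, the difference that goes with Jmjd1b loss in Jmjd1a-KO minus that in WT, was 2.53 ± 0.38 (limma, adjusted p = 0.00936). The Jmjd1a-KO and double-KO means of 7.03 and 6.74 lay near the array median of 6.80 to 6.81, where a probe set may hold little signal above background, and the flat member probe sets lay at 5.94 to 6.77. This left little room for a further fall of Cdkn1c in cells without Jmjd1a, and its part in the interaction was not tested. The sizes of the falls are open to the same limit.

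Phlda2, a small protein with a pleckstrin homology domain, limits growth of the placenta and sits close to Cdkn1c on chromosome 7. Its probe set (1417837_at) read 11.64 and 11.80 in WT, 9.34 and 9.89 in Jmjd1a-KO, 11.55 and 11.89 in Jmjd1b-KO, and 6.44 and 6.90 in double-KO. WT and Jmjd1b-KO overlapped, Jmjd1a-KO lay below both, and double-KO lay lowest.
Phlda2 fell in Jmjd1a-KO, at -2.11 ± 0.24 against WT (limma, adjusted p = 0.00748), and in double-KO, at -5.05 ± 0.24 (adjusted p = 0.000172), a 33.2-fold lower signal. In Jmjd1b-KO the difference from WT was -0.00, with a 95% interval of -0.59 to 0.58 (limma, adjusted p = 0.997). Double-KO minus Jmjd1a-KO was -2.95 (limma, adjusted p = 0.00137), so that the interaction was -2.94 ± 0.34 (limma, adjusted p = 0.00518). Phlda2 was the one gene of the 7 whose interaction passed with a negative sign. Its double-KO mean of 6.67 lay below the array median of 6.80 to 6.81, so the size of its fall there is open to the limit given for Cdkn1c.

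Grb10 is an adaptor that binds the insulin and IGF1 receptors and restrains their signal. Its measured probe set (1425458_a_at) read 12.03 and 12.04 in WT, 8.18 and 9.32 in Jmjd1a-KO, 8.28 and 8.70 in Jmjd1b-KO, and 5.98 and 6.59 in double-KO. The single KOs overlapped each other midway between WT and double-KO, and the replicates of Jmjd1a-KO differed by 1.14, the widest replicate gap of any member. A further 2 Grb10 probe sets were flat.
Grb10 also fell in all 3 KO groups, with differences from WT of -3.28 ± 0.40 for Jmjd1a-KO (limma, adjusted p = 0.00859), -3.55 ± 0.40 for Jmjd1b-KO (adjusted p = 0.00641) and -5.75 ± 0.40 for double-KO (adjusted p = 0.000391), the last a 53.8-fold lower signal. Double-KO was below both single KOs, at -2.47 against Jmjd1a-KO (limma, adjusted p = 0.00935) and -2.20 against Jmjd1b-KO (adjusted p = 0.00635). The interaction of 1.08 had a 95% interval of -0.30 to 2.47 (limma, adjusted p = 0.204), so the 2 losses were not shown to depart from adding on the log2 scale. However, the double-KO mean of 6.29 lay below the lower quartile of the arrays (6.34 to 6.35) and among the levels of the flat member probe sets (5.94 to 6.77). The size of the double-KO fall and the interaction are open to the limit given for Cdkn1c, and its part was not tested. Without Jmjd1a-KO replicate 2 the interaction was 1.65 (limma, adjusted p = 0.0279).

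Igf2, insulin-like growth factor 2, is the paternally expressed growth factor of the group and lies beside H19. Its measured probe set (1448152_at) read 8.62 and 8.84 in WT, 7.99 and 7.92 in Jmjd1a-KO, 7.77 and 7.72 in Jmjd1b-KO, and 8.69 and 8.50 in double-KO. Both single KOs lay below WT and double-KO without overlap, and WT and double-KO overlapped each other.
Igf2 fell in both single KOs, at -0.78 ± 0.10 in Jmjd1a-KO (limma, adjusted p = 0.00956) and -0.98 ± 0.10 in Jmjd1b-KO (adjusted p = 0.00525). In double-KO the difference from WT was -0.13, with a 95% interval of -0.38 to 0.11 (limma, adjusted p = 0.320). Double-KO was higher than Jmjd1a-KO by 0.64 (adjusted p = 0.00819) and than Jmjd1b-KO by 0.85 (limma, adjusted p = 0.00145), and the interaction was 1.63 ± 0.14 (adjusted p = 0.00306).
Fibroblast markers, a list that also holds the actin-filament genes Acta2 and Tagln, moved in part with Igf2 and Cdkn1c. Of 17 listed, 12 were measured, and their mean level per array was 9.38 to 9.50 in WT, 8.36 to 8.45 in Jmjd1a-KO, 7.27 to 7.43 in Jmjd1b-KO and 8.33 to 8.55 in double-KO. In the contrasts with WT, 8, 9 and 6 of the 12 fell in Jmjd1a-KO, Jmjd1b-KO and double-KO, where 7.83%, 10.2% and 19.8% of all genes tested fell. In Jmjd1a-KO the count dropped to 3 and 2 when WT replicate 1 or 2 was left out, and to 5 for either Jmjd1b-KO replicate. The flat ones were Col6a1, Dcn, Lum, Prrx1 and S100a4. Endoderm markers had a mean level over 9 measured of 18 listed of 8.09 to 8.16, 8.23 to 8.36, 7.60 to 7.64 and 8.57 to 9.00 in the same order, with Gata4, Sox7, Foxa2, Afp and Ttr among the flat ones. The part of either cell type in the Igf2 and Cdkn1c results was not tested.

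Igf2r carries IGF2 to the lysosome for breakdown and so lowers its level outside the cell. Its reference probe set (1424112_at) read 9.27 and 9.07 in WT, 9.37 and 8.96 in Jmjd1a-KO, 9.33 and 9.26 in Jmjd1b-KO, and 9.49 and 9.63 in double-KO. The first 3 groups overlapped, and double-KO lay highest, by 0.39 over WT with a 95% interval of 0.02 to 0.76 (limma, adjusted p = 0.0768). The second probe set (1424111_at) differed by 0.15 between the same groups, and neither passed in any comparison (lowest adjusted p = 0.0745). In 4 of 17 alternatives 1424112_at did pass in double-KO against WT: with only the groups compared (limma, adjusted p = 0.047), with array weights (0.0456) and without either Jmjd1a-KO replicate (0.0203 each). It also passed against Jmjd1a-KO without Jmjd1a-KO replicate 1 (0.0213) and against Jmjd1b-KO with only the groups compared (0.0469).

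Gnas encodes the alpha subunit of the stimulatory G protein, which couples receptors to cyclic AMP production, from a locus with several imprinted transcripts. Its measured probe set (1450186_s_at) read 11.77 and 11.88 in WT, 11.64 and 11.84 in Jmjd1a-KO, 10.85 and 10.94 in Jmjd1b-KO, and 12.27 and 12.09 in double-KO. Jmjd1b-KO lay below all others and double-KO above all others, while WT and Jmjd1a-KO overlapped. The transcript that this probe set reads was not given in the sources used here, and 4 other Gnas probe sets were flat.
Gnas fell in Jmjd1b-KO, at -0.93 ± 0.10 against WT (limma, adjusted p = 0.00621), and its difference in Jmjd1a-KO was -0.08 (adjusted p = 0.583). It was higher in double-KO than in WT by 0.36 (limma, adjusted p = 0.0309), than in Jmjd1a-KO by 0.44 (adjusted p = 0.0251) and than in Jmjd1b-KO by 1.29 (adjusted p = 0.000474). Centring each array on its median ended the call against WT (adjusted p = 0.0509). The interaction was 1.37 ± 0.14 (limma, adjusted p = 0.00432): Gnas signal was lower in Jmjd1b-KO than in WT and higher in double-KO than in Jmjd1a-KO.

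Ascl2, a basic helix-loop-helix factor needed for trophoblast of the placenta, had 3 measured probe sets that did not agree. Its brightest (1460514_s_at) read 7.17 and 7.25 in WT, 7.27 and 7.13 in Jmjd1a-KO, 7.36 and 7.46 in Jmjd1b-KO, and 7.11 and 7.22 in double-KO. Its one call, double-KO against Jmjd1b-KO at -0.24 (limma, adjusted p = 0.0463), was kept in 6 of 17 alternatives, with adjusted p up to 0.218 in the others.
The dimmer 1432018_at read 6.13 and 6.23 in WT, 5.61 and 5.82 in Jmjd1a-KO, 6.65 and 6.71 in Jmjd1b-KO, and 5.96 and 5.90 in double-KO. All but the Jmjd1b-KO values lay below the lower quartile of the arrays (6.34 to 6.35), where a probe set may hold little signal above background. Its groups did not overlap, with Jmjd1b-KO highest and Jmjd1a-KO lowest. Against WT it fell by 0.46 in Jmjd1a-KO (limma, adjusted p = 0.0219) and rose by 0.50 in Jmjd1b-KO (adjusted p = 0.0153), and double-KO minus Jmjd1b-KO was -0.75 (adjusted p = 0.00133). The third, 1422396_s_at, fell by 0.67 in Jmjd1a-KO (limma, adjusted p = 0.0313), and double-KO minus Jmjd1b-KO was -0.72 (adjusted p = 0.0092). The call of 1422396_s_at in Jmjd1a-KO was lost in 9 of 15 alternatives, among them the replicate block, array weights and either WT replicate left out, and those of 1432018_at in Jmjd1a-KO and Jmjd1b-KO in 7 and 5 of 15. The call of 1432018_at between double-KO and Jmjd1b-KO passed in all 15. All 3 thus placed Jmjd1b-KO highest, and they differed on Jmjd1a-KO, where the brightest gave -0.01.
Trophoblast markers are a list that holds none of the 8 genes. Of 19 listed, 7 were measured, among them the keratin genes Krt7, Krt8, Krt18 and Krt19. The mean level of the 7 per array was 7.29 to 7.39 in WT, 7.80 to 7.82 in Jmjd1a-KO, 8.28 to 8.33 in Jmjd1b-KO and 8.96 to 8.98 in double-KO. Against WT 2 of the 7 rose in Jmjd1a-KO, Tfap2c and Eomes, with a median difference over the 7 of 0.04. In Jmjd1b-KO 6 rose (10% and 13.6% of all genes tested rose in these contrasts), and this count was 1 when WT replicate 1 or Jmjd1b-KO replicate 2 was left out, 3 for WT replicate 2 or Jmjd1b-KO replicate 1 and 1 in the fit of all 45101 probe sets. In double-KO 6 rose (28.1% of all genes tested rose), with the largest rises in Tfap2c, Krt8 and Krt18. Cdx2, Elf5, Hand1, Gata3 and Tpbpa were among the 11 flat ones. Their part in the member results was not tested.

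Counted over the 10 member probe sets, 6 passed in Jmjd1a-KO against WT, all lower, where 7.84% of all 11502 measured probe sets were lower and 9.98% higher. In Jmjd1b-KO against WT 1 was higher and 4 were lower, where the background was 12.3% and 11.5%. Double-KO against WT had 1 higher and 3 lower (26.9% and 19.6% of all). The same group against Jmjd1a-KO had 2 higher and 2 lower (17% and 11.9%), and against Jmjd1b-KO 2 higher and 6 lower (28.3% and 21.8%). For the interaction 3 were higher and 1 lower (13.9% and 11.1%). Of the 10 probe sets, 3 are of Ascl2 and 2 of Igf2r. With the 7 reference probe sets alone, 4 were lower and 0 higher in each single KO against WT. Of the 7181 genes tested, 7.83% were lower in Jmjd1a-KO and 10.2% in Jmjd1b-KO. Double-KO against Jmjd1b-KO then had 2 higher and 4 lower (28.1% and 23.3% of genes), and the counts of the remaining contrasts were the same. The rule used these contrasts, so the member counts are a description. The median difference from WT of the 7 reference probe sets was -0.78 for Jmjd1a-KO, -0.93 for Jmjd1b-KO and -0.13 for double-KO.
Ranked from the lowest difference from WT among the 11502, Cdkn1c was number 8 for Jmjd1a-KO, 17 for Jmjd1b-KO and 17 for double-KO. Grb10 was number 10, 7 and 5 in the same order, and Phlda2 number 29, 5648 and 7.

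**Figure D2:**
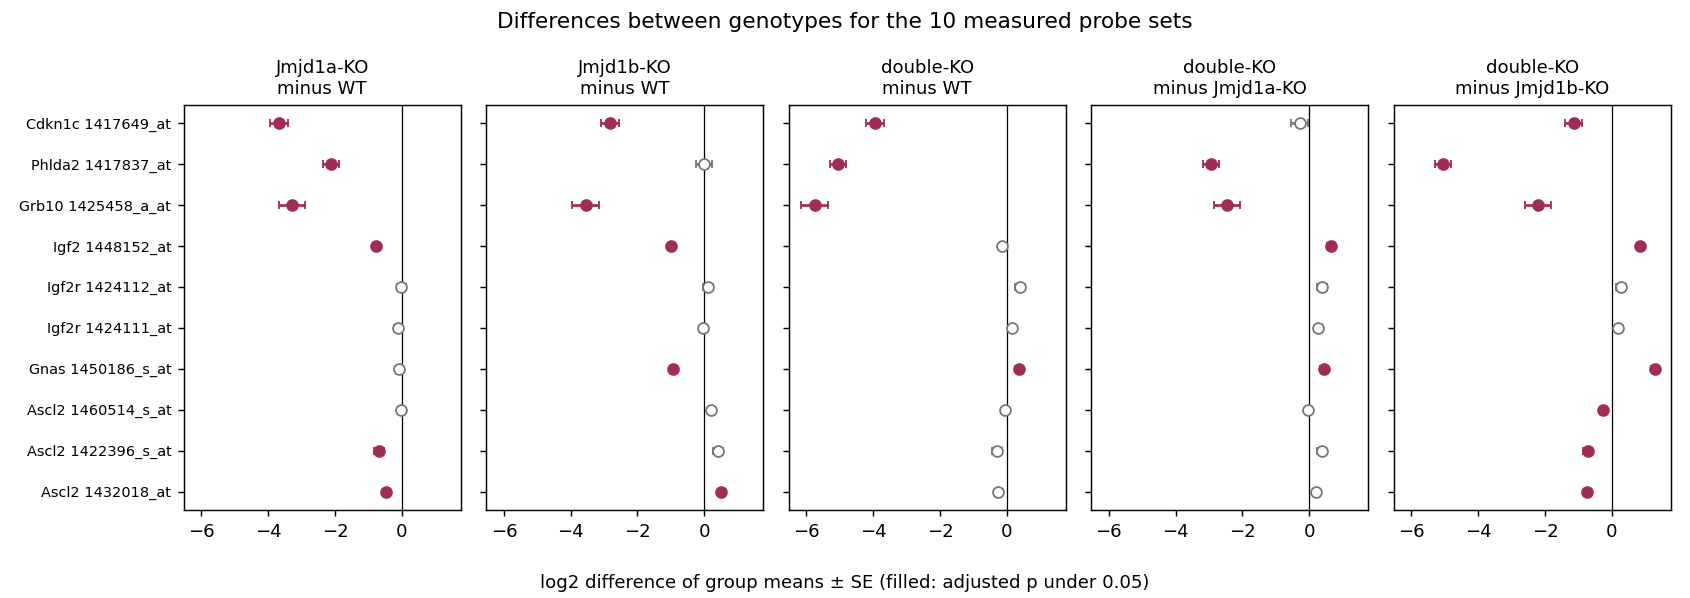
Log2 difference (x axis) with its standard error for the 10 member probe sets in 5 comparisons, 1 panel each, with filled points for an adjusted p under 0.05. Cdkn1c, Phlda2 and Grb10 lie at -3.95, -5.05 and -5.75 in double-KO against WT, and Phlda2 lies at -0.00 in Jmjd1b-KO against WT.

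Most calls against WT in the single KOs were less firm than the falls of Cdkn1c, Phlda2 and Grb10 in double-KO. When all 45101 probe sets were fitted, flat ones included, 1 of the 10 passed in Jmjd1a-KO and 3 in Jmjd1b-KO; Phlda2 (adjusted p = 0.0703), Grb10 (0.083) and Igf2 (0.0738) were lost in Jmjd1a-KO, and Grb10 (0.0666) in Jmjd1b-KO. Single arrays also decided some calls. In Jmjd1a-KO against WT, Grb10 was lost without WT replicate 1 (adjusted p = 0.0577), and Grb10 (0.0638), Phlda2 (0.0611) and Igf2 (0.0611) without WT replicate 2. In Jmjd1b-KO against WT, Grb10 and Gnas were lost without WT replicate 1 (0.0568 and 0.0525) and without Jmjd1b-KO replicate 1 (0.0537 for both). None of the 10 passed in Jmjd1b-KO without Jmjd1b-KO replicate 2, where 5 had an unadjusted limma p under 0.05 and Cdkn1c had an adjusted p of 0.051. The falls of Cdkn1c, Phlda2 and Grb10 in double-KO against WT passed in all 17 alternatives run. The rise of Gnas in the same comparison did not pass without WT replicate 1 (adjusted p = 0.146), WT replicate 2 (0.0714), either Jmjd1b-KO replicate (0.058 each) or double-KO replicate 1 (0.128). Between double-KO and Jmjd1b-KO, Cdkn1c did not pass without Jmjd1b-KO replicate 1 (0.0695), Jmjd1b-KO replicate 2 (0.0747) or double-KO replicate 2 (0.07). In the fit of all 45101 probe sets the calls between double-KO and Jmjd1a-KO were lost for Grb10 (adjusted p = 0.103), Igf2 (0.0767) and Gnas (0.149), and those between double-KO and Jmjd1b-KO for Cdkn1c (0.128) and Grb10 (0.0785). Phlda2 passed in all alternatives of both comparisons. Gnas against Jmjd1a-KO was also lost without Jmjd1a-KO replicate 1 (0.0709), either Jmjd1b-KO replicate (0.0534 each) or double-KO replicate 1 (0.105).

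**Figure D3:**
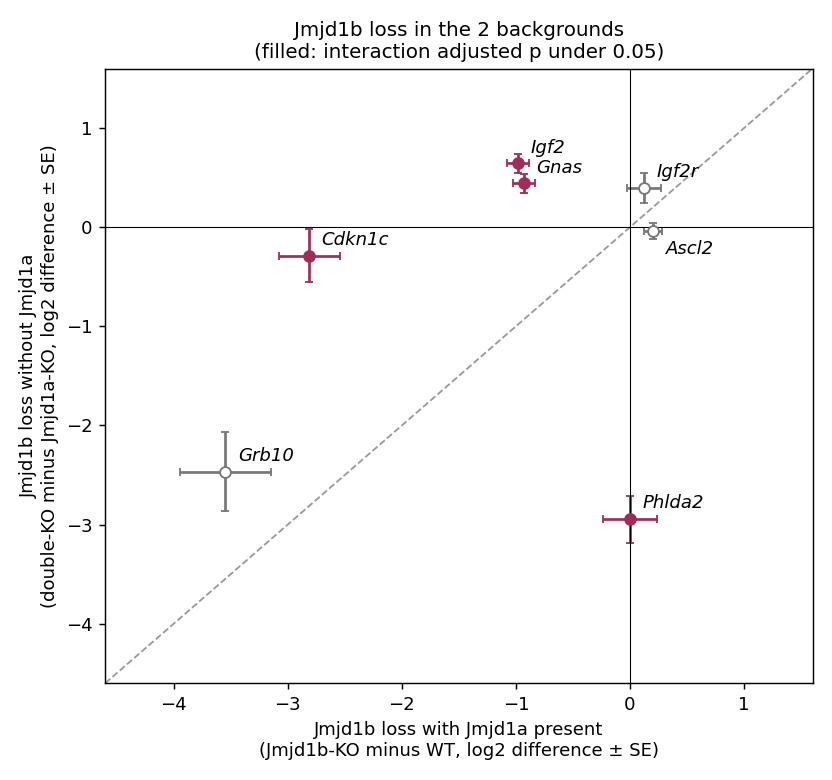
Log2 differences that go with Jmjd1b loss for the 7 reference probe sets, with standard errors. The x axis is for cells with Jmjd1a (Jmjd1b-KO minus WT) and the y axis for cells without it (double-KO minus Jmjd1a-KO). Points on the diagonal have equal differences. Phlda2 lies at -0.00 and -2.95, Cdkn1c at -2.81 and -0.29, and Igf2 at -0.98 and 0.64.

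The members also differed in how their profiles ran over the 8 arrays, given here as Pearson's r with no test, since the arrays share their 4 genotypes. Cdkn1c and Grb10 ran closest (0.92), followed by Phlda2 with Grb10 (0.79), Gnas with Igf2 (0.78) and Cdkn1c with Phlda2 (0.69), while Gnas ran against Ascl2 (-0.87) and Phlda2 (-0.70).
Among 2782 probe sets with a span of at least 1 log2 unit, the profile most like Phlda2 was that of Plac8, with group means of 12.08 (WT), 9.28 (Jmjd1a-KO), 11.81 (Jmjd1b-KO) and 6.02 (double-KO), followed by Acacb and Fkbp11 (r of 0.996 or more for all 3). Cdkn1c was most like Myl9 (0.99), a smooth-muscle and non-muscle myosin light chain, then Acot1 and Zfp991. Grb10 was most like Ppp1r14b (0.98), Usp37 and Gsto1.
Igf2 was most like Ankrd1 (0.97) and the smooth-muscle genes Tagln (0.96) and Acta2 (0.96), and the means of Acta2 in the same order of groups were 12.10, 9.36, 7.34 and 11.09. Gnas was most like Mex3a, Aff3 and Hmgb3 (0.98 or more), Ascl2 like Egln3, Mef2b and Syce2, and Igf2r like Khnyn, Stag3 and Anln.

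H19, Igf2, Ascl2, Cdkn1c and Phlda2 lie in 1 imprinted cluster of distal chromosome 7, which has a control region beside H19 and another within Kcnq1. RefSeq orders 31 genes from H19 to Osbpl5, of which 8 were measured, 14 were flat and 9, H19 among them, had no probe set of their own. Besides the 4 measured members, Cd81, Tssc4, Kcnq1ot1 and Cars were measured.
Kcnq1ot1 is the paternally expressed noncoding RNA that silences Cdkn1c and Phlda2 on its own chromosome. It read 7.23 and 6.95 in WT, 9.22 and 8.87 in Jmjd1a-KO, 7.59 and 6.95 in Jmjd1b-KO, and 7.12 and 7.70 in double-KO. Only Jmjd1a-KO lay apart, above the other 6 arrays. Kcnq1ot1 rose by 1.96 in Jmjd1a-KO against WT (limma, adjusted p = 0.0129) and was lower in double-KO than in Jmjd1a-KO, at -1.64 (adjusted p = 0.0116), with a difference of 0.32 between double-KO and WT (adjusted p = 0.401). The rise did not pass without either WT replicate or in the fit of all 45101 probe sets (adjusted p = 0.118), and the difference between double-KO and Jmjd1a-KO did not pass in that fit (0.116) or without double-KO replicate 1. Any link between Kcnq1ot1 and the levels of Cdkn1c or Phlda2 was not tested. Cars, a transfer RNA synthetase gene beyond Phlda2, differed from WT by -1.28 in double-KO and 0.61 in Jmjd1b-KO, both past the threshold. The first passed in all 17 alternatives and the second (limma, adjusted p = 0.0494) in 6 of 17, being lost, among others, under both rescalings, in the whole table (0.255) and without any one WT, Jmjd1a-KO or Jmjd1b-KO replicate. Cd81 and Tssc4 passed in no comparison.

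**Figure D4:**
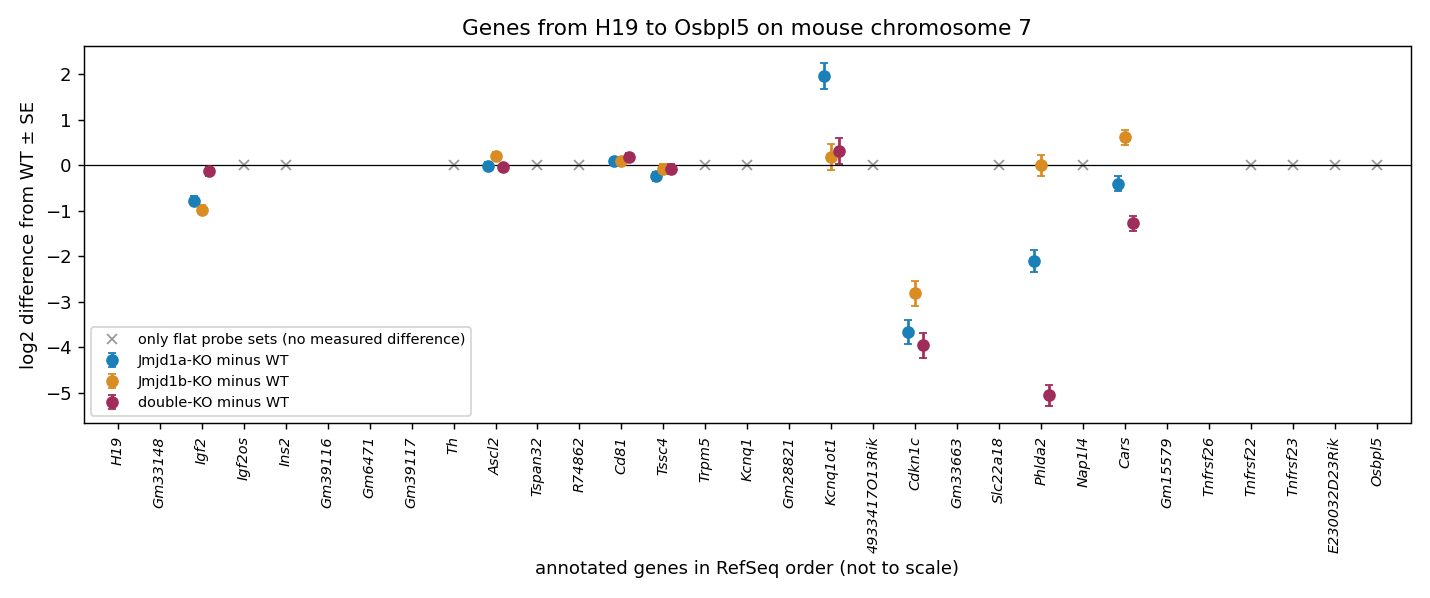
Log2 difference from WT (y axis) of the measured genes of the chromosome 7 cluster in Jmjd1a-KO, Jmjd1b-KO and double-KO, against gene order from H19 to Osbpl5 (x axis, not to distance); crosses on the 0 line mark genes with flat probe sets only, and genes with no probe set of their own have no mark. Cdkn1c and Phlda2 lie at -3.95 and -5.05 in double-KO, and Kcnq1ot1 lies at 1.96 in Jmjd1a-KO.

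Of the neighbours of Grb10, Gnas and Igf2r on their own chromosomes, 5 of 20 listed genes were measured. Ddc, which makes dopa decarboxylase and lies next to Grb10, read 10.82 and 10.85 in WT, 9.61 and 9.43 in Jmjd1a-KO, 10.02 and 9.94 in Jmjd1b-KO, and 6.95 and 7.56 in double-KO. Its order of groups differed from that of Grb10 in the single KOs, and both were lowest in double-KO. The difference of Ddc from WT was -1.31 for Jmjd1a-KO (limma, adjusted p = 0.0131), -0.85 for Jmjd1b-KO (adjusted p = 0.03) and -3.57 for double-KO (adjusted p = 0.000218). The last passed in all 17 alternatives. The call in Jmjd1a-KO was lost without either WT replicate, that in Jmjd1b-KO without either WT or either Jmjd1b-KO replicate, and both in the whole table (0.116 and 0.187).

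The genes around the members' pathways come from lists in which each gene has 1 probe set, its brightest measured one. Of 43 further genes of IGF and insulin signalling, in which Igf2, Igf2r and Grb10 act, 24 were measured. In double-KO against WT 15 rose and 1 fell, with a median of 0.48, where 28.1% of the 7181 genes tested rose and 19.8% fell. Insr, the insulin receptor that GRB10 binds, rose by 1.63 (limma, adjusted p = 0.000783), and Grb14, a relative of Grb10, rose by 1.80 (adjusted p = 0.000533) while Grb10 itself fell. Igfbp4, an IGF-binding protein, was the gene that fell, at -3.91 (adjusted p = 0.000906). In Jmjd1a-KO 6 rose and 2 fell (background 10% and 7.83%), and in Jmjd1b-KO 5 rose and 6 fell (13.6% and 10.2%), among them Igf2bp3, which binds Igf2 RNA, at -1.94. The 15 rises in double-KO were 7 when all 45101 probe sets were fitted and 9 without WT replicate 2. The counts in the single KOs were less firm: none of the list passed in Jmjd1a-KO in limma's fit without either WT replicate (9 and 8 had an unadjusted p under 0.05), and without each WT or Jmjd1b-KO replicate none rose and 1 to 3 fell in Jmjd1b-KO (11 to 13 unadjusted).
Of 16 other cell-cycle inhibitors and the cyclins and kinases they act on, 14 were measured. In double-KO against WT 4 rose and 5 fell, where 28.1% of all genes tested rose and 19.8% fell. Cdkn2a, which encodes p16 and p19Arf, rose by 2.41 (limma, adjusted p = 0.000167) while Cdkn1c fell, and Cdkn1b rose by 0.88. Cdkn1a fell by 1.11, and the cyclin gene Ccnd1 fell by 4.03 (adjusted p = 0.000461).
Of 24 genes of G-protein signalling around Gnas, 15 were measured, with 7 higher and 1 lower in double-KO against WT, of which 3 and 1 were left without WT replicate 2, 4 and 0 without WT replicate 1 and 4 and 1 without double-KO replicate 1. Of all genes tested, 28.1% rose and 19.8% fell in double-KO against WT. Gnai2, the inhibitory alpha subunit, rose by 0.72 in double-KO and fell by 0.60 in Jmjd1b-KO, the directions seen for Gnas. Its rise passed in all 17 alternatives, and its fall was lost in the whole table (limma, adjusted p = 0.0865) and without either WT or either Jmjd1b-KO replicate. Phlda1, the measured relative of Phlda2, fell by 0.63 in Jmjd1b-KO, where Phlda2 did not pass, and its difference in double-KO was 0.47. That fall (limma, adjusted p = 0.0415) was lost in the whole table (0.232), with the replicate block and without either WT or either Jmjd1b-KO replicate.
Of 11 relatives and dimer partners of Ascl2, 7 were measured. In Jmjd1b-KO against WT 4 fell, among them Id2 at -2.14 and Tcf4 at -1.39, where 10.2% of all genes tested fell. In the fit of all 45101 probe sets 1 fell. The count also dropped when each of the WT and Jmjd1b-KO replicates was left out in turn.

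Of 32 genes that keep or erase imprints, 18 were measured, and in double-KO against WT 3 rose and 7 fell, where 28.1% of all genes tested rose and 19.8% fell. Dnmt3a, a DNA methyltransferase that sets imprints in germ cells, fell by 3.32 (limma, adjusted p = 0.000666). Its cofactor gene Dnmt3l fell by 2.10 in double-KO (adjusted p = 0.00324) and rose by 1.87 in Jmjd1b-KO (adjusted p = 0.0135). In the whole table neither of these calls of Dnmt3l passed (limma, adjusted p = 0.0518 and 0.121). The rise was also lost without either WT or either Jmjd1b-KO replicate, while the fall of Dnmt3a in double-KO passed in all 17 alternatives. The 7 falls were 2 without WT replicate 1, 3 without WT replicate 2, 4 without either Jmjd1b-KO replicate and 1 when all 45101 probe sets were fitted.
Of 31 other imprinted genes, 20 were measured, and 9 rose and 4 fell when double-KO was set against WT (28.1% and 19.8% of all genes tested). In the fit of all 45101 probe sets 4 rose and 3 fell, and the lowest count of both together with 1 array left out was 9, without WT replicate 2 or double-KO replicate 1. Rian, Meg3 and Mirg headed the falls of this list in that comparison. They were also its 3 genes with lower signal in Jmjd1a-KO than in WT, beside 4 with higher signal (7.83% and 10% of all genes tested). The fit of all 45101 probe sets left 2 lower and 3 higher for Jmjd1a-KO. The same 3 genes made up the falls between double-KO and Jmjd1b-KO, beside 10 rises. In Jmjd1b-KO against WT 13.6% of all genes tested rose and 10.2% fell. On this list 2 rose and 6 fell there, among the latter the paternally expressed Plagl1 (-2.29), Mest (-1.61) and Nnat (-1.37). These falls were 2 without WT replicate 2 and 0 in limma's fit without WT replicate 1 or either Jmjd1b-KO replicate (8 to 10 list genes had an unadjusted p under 0.05). Plagl1, like Igf2, was lower in Jmjd1b-KO than in double-KO, by a difference that passed in all 17 alternatives. It was 2.06 higher in double-KO than in WT, a call that was lost in the whole table (adjusted p = 0.156) and without either WT replicate or double-KO replicate 1.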

How the data were processed

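RNA of 8 ES cell samples was measured on 1 Affymetrix array each. The deposited values are log2 levels per probe set, a unit read from the values; R 2.7.2 stands in the submitters' processing notes, while the normalization method was not given in the sources used here. How the values were normalized could shift all levels of an array. Of 45101 probe sets, 74.5% were flat (span under 0.01) and hold no measured difference.

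Probe sets were named through the platform's gene table (34958 with 1 symbol, 932 with several, 9211 with none). Groups came from the genotype labels. A model with 4 group means (4 residual degrees of freedom) was fitted with limma 3.58.1 in R 4.3.3 to the 11502 measured probe sets, because the flat ones draw the estimated spread to nearly 0. P-values were Benjamini-Hochberg adjusted, with a threshold of 0.05. The whole table was an alternative, as were 1 probe set per gene, a filter on low values, quantile normalization, centring, only the groups compared, robust eBayes with trend, array weights, a replicate block and omission of each array.

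Members and gene lists were chosen with earlier results of these data known. Named by rule were all members and the 3 profiles most like each member. The list genes named were picked by eye, and those that moved most in a contrast are not all among them. The reference probe set of a gene is its measured one with the highest mean. On simulated data for double-KO against WT, with 11502 probe sets, the fit recovered 40.9% of changes of 0.5, 77.5% of 1 and 96.4% of 2 log2 units, with 5.09% false calls. The simulation changed few probe sets, in double-KO alone, and each had the same spread in every group. In the data 5350 probe sets passed in this contrast and the groups differed in replicate spread, so these rates may not carry over. Promoter windows are RefSeq's (GRCm38.p6). Signal over background was not analysed here. Python 3.11.15 and matplotlib 3.10.9 drew the figures.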

Additional observations from a re-analysis of the deposited data

Results flagged for a closer look

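The effect of Jmjd1b loss, taken as double-KO minus Jmjd1a-KO, was set against the same effect in cells with Jmjd1a, Jmjd1b-KO minus WT, by an interaction term in limma over 11502 measured probe sets. The interaction passed for 4 members. The difference was 2.53 for Cdkn1c and -2.94 for Phlda2, whose fall with Jmjd1b loss was seen in cells without Jmjd1a. For Cdkn1c the means of both groups without Jmjd1a, 7.03 and 6.74, lay near the array median of 6.80 to 6.81, which left little room for a further fall, and the part of this limit in the difference was not tested. The difference was 1.63 for Igf2 and 1.37 for Gnas, which were lower after Jmjd1b loss in cells with Jmjd1a and higher in cells without. The interactions of Igf2 and Gnas passed in all 16 alternatives run, that of Cdkn1c was lost in the fit of the whole table (adjusted p = 0.0926) and with 1 probe set per gene (0.0731), and that of Phlda2 in the whole table (0.0529). With 2 arrays per genotype, single samples far from their group could not be tested.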

How the results depend on the processing

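The numbers of member probe sets that passed, 6 in Jmjd1a-KO against WT, 5 in Jmjd1b-KO against WT, 4 in double-KO against WT, 4 in double-KO against Jmjd1a-KO, 8 in double-KO against Jmjd1b-KO and 4 for the interaction, stayed the same under quantile normalization. With the whole table they were 1, 3, 3, 1, 4 and 2. With 1 probe set per gene, where 7 member probe sets enter, they were 1, 3, 3, 1, 3 and 3. Fitting only the groups compared gave 3, 6, 5, 1 and 8, and the interaction was not run that way. Array weights gave 5, 7, 6, 3, 8 and 4. With single arrays left out they ranged from 1 to 6, 0 to 5, 3 to 6, 3 to 5, 5 to 8 and 4 to 5. Whether the replicate numbers pair the arrays is not given by the labels. Deviations of same-numbered arrays correlated at -0.04 to 0.24, highest for WT with Jmjd1a-KO, which does not settle it. The fit with the replicate block gave 5, 5, 4, 4, 7 and 4.

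For single probe sets, signs reversed only among values that had not passed, and only with an array left out. Over the arrays left out, the values against WT ran from -0.21 to 0.20 for Igf2r 1424112_at, -0.18 to 0.018 for Gnas and -0.079 to 0.064 for Ascl2 1460514_s_at in Jmjd1a-KO. They ran from -0.17 to 0.16 for Phlda2 and -0.11 to 0.045 for Igf2r 1424111_at in Jmjd1b-KO, and from -0.10 to 0.013 for Ascl2 1460514_s_at in double-KO. In double-KO against Jmjd1a-KO they ran from -0.11 to 0.036 for Ascl2 1460514_s_at and from -0.71, without Jmjd1a-KO replicate 1, to 0.14, without Jmjd1a-KO replicate 2, for Cdkn1c, which passed at the first of these. The interaction of Ascl2 1422396_s_at ran from -0.21 to 0.12. The mean of all 3 Ascl2 probe sets gave -0.38, 0.38, -0.20, 0.18 and -0.57 in the comparisons before the interaction. The value of 0.18, for double-KO minus Jmjd1a-KO, had the opposite sign to that of the brightest probe set (-0.04), which had not passed. Of single-probe-set values, 411 of those with an array left out stayed on the same side of the threshold with the same sign, 45 lost the call and 9 gained it. The cause of these changes was not tested. Counts of the gene lists and calls of their named genes under the same settings were added after seeing the data. Signal over background was not analysed here, so the size of falls toward the low end of the scale is uncertain.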
